A study of Mus musculus with 9 samples.

Results

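The regions described here are 654 places where MyoD1 lay at the start of a gene that is not annotated as protein coding, and away from every protein-coding start. Overlapping or touching peaks of the 6 deposited lists were joined into regions, and the 18774 regions called by 2 or more of the 6 libraries were kept. A kept region was a member when its centre lay within 1 kb of a transcript start of a gene whose type is not protein_coding, and more than 1 kb from every start of a protein-coding gene, in the GENCODE M21 basic annotation of mm10. The 654 members were 3.48% of the kept regions, against 7801 regions at coding starts (coding promoters) and 10319 regions more than 1 kb from any start.

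The binding map came from CUT&RUN, in which a nuclease is tethered through an antibody to a chromatin protein in permeabilised nuclei and the fragments it releases are sequenced. All 6 libraries came from C2C12, a mouse skeletal muscle myoblast line, carrying a 3xFlag-HaloTag on MyoD1 at the endogenous locus together with a doxycycline (dox) inducible 3xF-Halo-MyoD1 transgene driven by a TRE3GS promoter, and were made with anti-Flag M2. Both alleles were thus present in every group, and the edited line was grown from a single-cell clone. Each group had 3 biological replicates, held for 6 h in differentiation medium either without dox (no dox) or with it (+dox), so the comparison asks how binding differs between the resident level of MyoD1 and a raised one. The 3 wild-type libraries, whose cells lack the tag, are not analysed here, and the values stand without a measured background. The profile was of a whole culture, in which fewer bound cells and less binding per cell cannot be told apart.

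MyoD1 is a basic helix-loop-helix factor that directs the skeletal muscle programme, binds the E-box (CANNTG) as a dimer with an E protein, and prefers CAGCTG. Transcripts that encode no protein include long non-coding RNAs, which are processed much like messenger RNAs, host transcripts from whose introns or exons small nucleolar RNAs (snoRNAs) and microRNAs are cut, and pseudogenes, which are copies of genes that have lost their function. Some of them act in muscle, where MyoD1 is known to activate the genes of the muscle microRNAs. The annotated start of a microRNA is that of its hairpin and not the start of the longer primary transcript, so a region at a hairpin start need not be the promoter of that transcript.

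The libraries numbered 3 stood apart from the others. +dox replicate 3 had 53661 peaks where the other 5 lists had between 9389 and 13877, at a depth of 8030000 alignments against 2868000 to 4667000, and the lowest total signal in a list was 354 and 336 in the replicates numbered 3 against 837 to 904 elsewhere. +dox replicate 3 called 629 of the 654 members (96.2%), against 95.0% of coding promoters and 98.1% of regions away from starts. By the 2 replicates numbered 3 alone 88 members (13.5%) were called, against 2.00% of coding promoters and 21.0% of regions away from starts. Without both of these libraries 413 members were kept. The class differences in motifs and GC content, the strict call patterns and the limma counts are also given without them. The shares by gene type, the pooled motif and CpG island-like shares, the ranks of members with and without CAGCTG and the number of libraries calling are given with them only. Their part in each result beyond that was not tested.

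The windows below show the DNA under the signal at 7 members, 100 bases to either side of the middle of the stretch with the highest signal, in the library where the member ranked highest. They are the plus strand of GRCm38.p6, the assembly behind mm10, and capitals mark CAGCTG and a second E-box, CACCTG, on either strand. AC166654.1, Mir210 and Gm35019 are the 3 highest members, Gm15996 had the highest and Gm16240 the lowest change statistic with dox, Mir206 is the only member on the muscle microRNA list, and Gm47602 is the highest member called only with dox.
AC166654.1, chr17:31790826-31791026: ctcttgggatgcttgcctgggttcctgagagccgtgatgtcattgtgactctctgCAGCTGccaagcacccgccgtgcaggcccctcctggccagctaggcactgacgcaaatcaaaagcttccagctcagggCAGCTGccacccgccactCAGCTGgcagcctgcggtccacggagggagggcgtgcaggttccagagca
Mir210, chr7:141221976-141222176: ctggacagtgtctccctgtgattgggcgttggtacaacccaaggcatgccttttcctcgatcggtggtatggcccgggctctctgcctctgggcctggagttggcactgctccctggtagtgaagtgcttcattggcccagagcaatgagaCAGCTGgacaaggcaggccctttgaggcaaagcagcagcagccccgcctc
Gm35019, chr15:37899776-37899976: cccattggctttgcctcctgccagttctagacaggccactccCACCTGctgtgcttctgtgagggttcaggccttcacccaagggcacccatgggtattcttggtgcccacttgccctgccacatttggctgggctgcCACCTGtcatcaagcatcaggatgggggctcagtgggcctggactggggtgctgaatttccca
Mir206, chr1:20678026-20678226: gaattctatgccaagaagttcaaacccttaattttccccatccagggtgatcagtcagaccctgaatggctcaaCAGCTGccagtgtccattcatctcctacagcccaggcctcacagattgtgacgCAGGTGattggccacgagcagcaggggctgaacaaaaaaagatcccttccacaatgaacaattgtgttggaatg
Gm15996, chr12:111732026-111732226: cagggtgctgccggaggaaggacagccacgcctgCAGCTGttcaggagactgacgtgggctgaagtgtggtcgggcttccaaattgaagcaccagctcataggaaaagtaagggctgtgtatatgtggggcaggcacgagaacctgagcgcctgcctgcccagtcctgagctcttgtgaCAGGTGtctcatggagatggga
Gm16240, chr10:76293326-76293526: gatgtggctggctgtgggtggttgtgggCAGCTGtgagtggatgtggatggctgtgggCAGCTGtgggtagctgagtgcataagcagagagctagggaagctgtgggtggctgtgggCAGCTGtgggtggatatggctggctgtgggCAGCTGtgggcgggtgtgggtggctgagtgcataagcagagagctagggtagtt
Gm47602, chr13:63278926-63279126: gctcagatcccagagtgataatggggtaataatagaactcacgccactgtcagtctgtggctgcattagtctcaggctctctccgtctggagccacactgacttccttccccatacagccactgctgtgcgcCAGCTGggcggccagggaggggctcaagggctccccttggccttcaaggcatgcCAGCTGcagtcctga
AC166654.1 held 3 CAGCTG in 201 bases, Gm16240 held 4 within a repeated unit, and Gm35019 held none but 2 CACCTG.

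Long non-coding RNAs made up most of the members. Of the 654, 223 (34.1%) lay nearest to a lincRNA, 134 (20.5%) to an antisense transcript and 64 (9.79%) to a processed_transcript, the type that holds many spliced host transcripts. Further down came 58 at microRNA hairpins, 57 at TEC genes (gene models that GENCODE lists as awaiting experimental proof), 45 at processed pseudogenes, 13 each at sense_intronic and snRNA genes and 12 at snoRNAs. They lay at 647 different nearest genes, 7 of which had more than 1 member, and 52 members had the start of a second non-coding gene within 1 kb.

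Set against the number of such genes in the annotation, the share with a member varied by type. Of 31271 non-coding genes with a start more than 1 kb from every coding start, 697 (2.23%) had a member. The share was 12.8% for processed_transcript (68 of 533 genes), 5.89% for antisense (128 of 2174), 4.26% for lincRNA (235 of 5522) and 3.34% for miRNA (67 of 2007), and, among types with at least 10 members, was lowest for snRNA (1.18%) and processed pseudogenes (0.445%, 44 of 9886). These shares are a description, since neighbouring genes share regions.

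**Figure D1:**
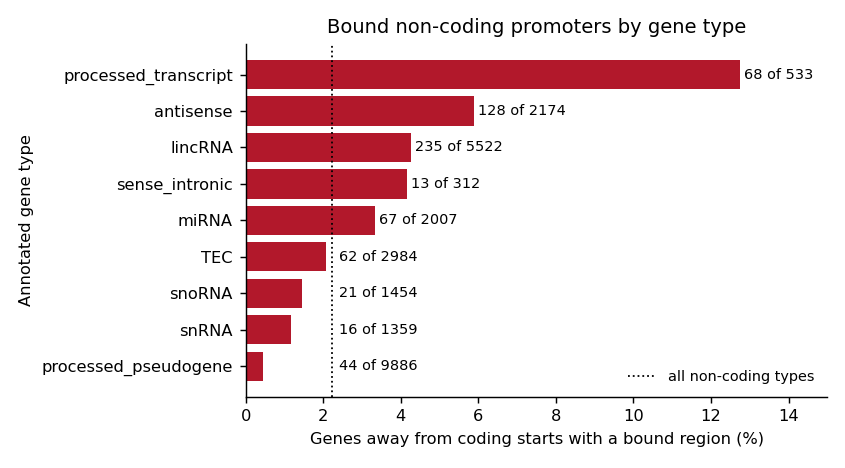
Bars give the share (%) of genes of each annotated type, among those with a start more than 1 kb from every coding start, that had a bound region, with the counts beside them, and the dotted line is the share over all non-coding types. Only types with at least 10 members are drawn. The processed_transcript bar ends at 12.8% and the processed_pseudogene bar at 0.445%, with all types together at 2.23%.

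The label was checked against a second annotation. RefSeq places a curated messenger RNA start within 1 kb of 21 members (3.21%), 6 of them called in all 6 libraries, and a curated or predicted one within 1 kb of 53 (8.10%). Trerf1 and Zswim6, for example, are processed_transcript genes in GENCODE M21 and coding genes in RefSeq. The other members have no curated coding start nearby in either annotation.

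The rule places the centre of each region within 1 kb of a start, so the distances that follow describe where the signal peaked inside that limit and are not a finding. Members were 400 to 15000 bp wide with a median of 1400 bp, and their maximum lay a median of 333.5 bp from the nearest non-coding start, within 100 bp of it at 127 members and over 1 kb from it at 57. The maximum was upstream of the start at 346 members (52.9%) and downstream at 308. For lincRNAs the median distance was 250 bp and for processed_transcript genes 235 bp, but it was 578.5 bp for microRNA hairpins. The nearest coding start was a median of 25144.5 bp away, with 40 members between 1 and 2 kb of one. Of the 654, 401 lay between coding genes, 165 inside a coding gene on the opposite strand to the non-coding transcript, 83 inside one on the same strand and 5 inside coding genes of both strands.

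**Figure D2:**
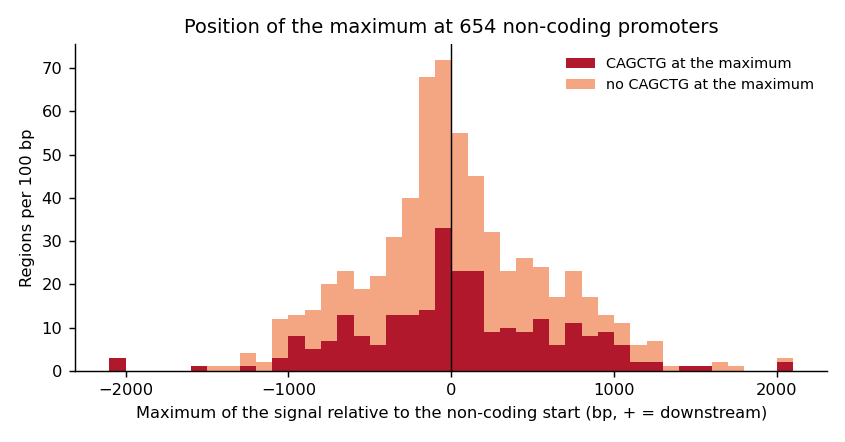
The histogram counts the 654 members by the position of their maximum signal relative to the nearest non-coding start, in bins of 100 bp along the direction of transcription, with positions past 2 kb placed at the edges. Dark bars are members with CAGCTG at the maximum (262) and pale bars those without (392). Most maxima lie near the start, on both sides of it.

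The rule itself cuts at 1 kb on both sides. Just inside the limit to the non-coding start were Gm9568 at 998 bp, Gm28609 at 996 bp and Gm22071 at 990 bp, called in 2, 3 and 4 libraries, and just outside were Gm16365 at 1001 bp, Gm11687 and Gm45778, both at 1003 bp, called in 2, 2 and 6. Members closest to a coding start were 2810430I11Rik, 1001 bp from that of the collagen gene Col5a1, Gm44260, 1002 bp from Bid, and Gm10655, 1015 bp from Tle3. Regions at Gm47205, Gm26571 and Gm44702 fell out because their centres were 976 bp from Bcl9l, 968 bp from Riox1 and 964 bp from Hnrnpl.

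The DNA under the maximum differed from that of coding promoters. CAGCTG was present in 262 of the 654 windows (40.1%, 95% Wilson interval 36.4 to 43.9), against 23.0% of coding promoters and 48.2% of regions away from starts. TGANTCA, the AP-1 type site, was in 101 member windows (15.4%), against 4.09% and 20.9%. The GC box GGGCGG, frequent in CpG-rich promoters, was in 27.4% of member windows, 59.8% of coding promoters and 13.1% of regions away from starts. CCAAT was in 20.8%, 29.6% and 18.2%, and CACCTG in 19.7%, 16.6% and 21.4%. All motifs were read on both strands, N stands for any base, and the interval covers counting error only.

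Windows were called CpG island-like when they had at least 55% GC and an observed to expected CpG ratio of at least 0.65. By this measure 144 members (22.0%) were island-like, against 68.5% of coding promoters and 5.27% of regions away from starts. The median GC content was 56.7%, 65.2% and 55.2%. The processed_transcript members were island-like at 45.3%, and the lincRNA members at 20.6%.

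In each library taken alone, members lay between the other classes in all 3 measures. The share of called members with CAGCTG was 43.8%, 41.2% and 32.4% in no dox replicates 1 to 3 and 40.3%, 42.3% and 40.9% in +dox replicates 1 to 3. It was above the share of coding promoters in 6 of 6 libraries, by 15.8 ± 4.62 percentage points (SD over 6 libraries), and below that of regions away from starts in 6 of 6, by -9.57 ± 2.22. TGANTCA stood 11.3 ± 1.83 points above coding promoters and -5.05 ± 1.17 below regions away from starts, and the median GC content -6.97 ± 0.995 points below coding promoters and 2.32 ± 1.16 above the others. Each of these 6 differences had the same sign in every library (exact two-sided sign-flip test over 6 libraries, p = 0.0312, the smallest this test can give, Benjamini-Hochberg adjusted p = 0.0417 over 8 class differences). With the replicate numbers as pairs only 3 independent values would remain, for which the smallest sign-flip p is 0.25. The libraries share regions and cells of 1 line, so these p-values measure the spread between these libraries. With any library left out the smallest p is 0.0625, and without both replicates numbered 3 the CAGCTG differences were 19.3 and -10.5 points, in the same direction.

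The height of members passed no test against the other classes. A height percentile is the share of peaks in the same list with a maximum signal at or below that of the region. Its median over called members was 55.4, 58.6 and 63.8 in no dox replicates 1 to 3 and 54.4, 52.7 and 82.7 in +dox replicates 1 to 3. The highest value was in +dox replicate 3, which had the longest list and the greatest depth. Coding promoters (74.3) and regions away from starts (84.4) were also high there. A part of list length or depth in this was not tested. Members were above coding promoters in 5 of 6 libraries, by 3.38 ± 3.97 points (exact sign-flip p = 0.0938, adjusted p = 0.107), and differed from regions away from starts by -1.02 ± 2.72 points (p = 0.375), so neither difference passed the test.

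**Figure D3:**
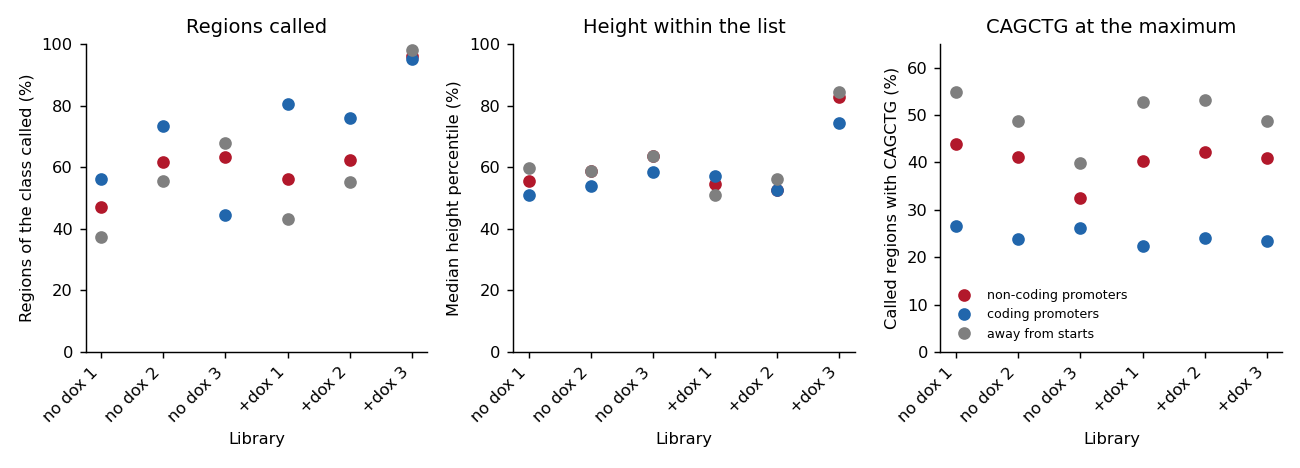
Points give, for each library, the share of each class called (left, %), the median height percentile of called regions (middle, %) and the share of called regions with CAGCTG in the 201 bp window at the maximum (right, %). Non-coding promoters are red, coding promoters blue and regions away from starts grey. In the right panel the red points lie between the other 2 classes in all 6 libraries, from 32.4% to 43.8%.

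Members with CAGCTG ranked higher than those without it. The median percentile of the 262 with the motif was 66.0, 68.8 and 71.8 without dox and 61.9, 63.1 and 88.2 with dox, against 45.9, 53.8, 58.5, 47.4, 48.9 and 77.8 for the 392 without. The order was the same in 6 of 6 libraries. Of those with the motif 94 (35.9%) were called in all 6 libraries, and of those without it 90 (23.0%). Of the island-like members 50.7%, 70.1% and 41.0% were called in no dox replicates 1 to 3 and 76.4%, 70.1% and 87.5% in +dox replicates 1 to 3, where the other members stood at 46.1%, 59.2%, 69.4%, 50.4%, 60.0% and 98.6%. The island-like members were thus below the others in both replicates numbered 3 and above them in the other 4 libraries, a difference that was not tested.

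The strongest members were high in every library. The top member, 4250 bp wide at the lincRNA AC166654.1 (chr17:31787701-31791950) and 65978 bp from the coding start of Sik1, a salt-inducible kinase gene, had a maximum signal of 182, 180 and 54.4 CPM without dox and 512, 321 and 133 CPM with dox. It lay at or above the 99.7 percentile of all peaks in each list, with its maximum 1400 bp downstream of the lincRNA start. Mir210, which encodes a microRNA known for its induction in low oxygen, followed with 80.0, 79.9 and 24.0 CPM against 173, 136 and 77.0 CPM, from a maximum 583 bp upstream of the hairpin. Gm35019, a lincRNA, had 76.1, 80.8 and 32.1 CPM against 97.6, 125 and 62.5 CPM, with its maximum 160 bp upstream of the start. In all 3, the replicates numbered 3 had the lowest maximum of their group.

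The next 7 by mean percentile were Gm45640 and Gm43094, TEC genes inside Chd9 and 2900026A02Rik, the microRNA gene Mir671 inside Chpf2 and Smarcd3, the lincRNA CT030155.1, the sense_intronic Gm29358 inside Pnkd and Tmbim1, the lincRNA Lncpint, and the lincRNA 4932412D23Rik. Lncpint is known as a transcript induced by p53. All 10, picked by their mean percentile, were at or above the 95.6 percentile in every list. Of the 10, 7 held CAGCTG at the maximum, the exceptions being Gm35019, Mir671 and Lncpint. Among all 184 members called in all 6 libraries, 94 (51.1%) held it. The highest members of other types, by mean percentile, ranked below these 10, though some had a higher maximum in single libraries. Gm4117, antisense inside the proteoglycan gene Vcan, reached 189 CPM in +dox replicate 1, the processed_transcript Abhd1 67.6 CPM and the processed pseudogene Gm13836 94.1 CPM in the same library. Among small RNAs other than microRNAs the highest by mean percentile was the snoRNA Gm25406 inside Lclat1, with 28.4, 32.1 and 19.3 CPM against 41.1, 69.5 and 46.1 CPM. It was followed by the misc_RNA Gm27782, with 17.2, 18.1 and 18.4 CPM against 16.7, 31.7 and 52.6 CPM. The highest snRNA was Gm26411 inside Fbxw8, with 10.5, 5.42 and 11.6 CPM against 7.32, 7.51 and 34.1 CPM.

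Between the extremes, most members were low and called by some libraries only. The median maximum over called members was 5.58, 4.97 and 3.86 CPM without dox and 9.07, 7.51 and 4.48 CPM with dox. 184 members (28.1%) were called in all 6 libraries, against 30.2% of coding promoters and 22.3% of regions away from starts. At the other end 224 (34.3%) were called in 2, against 19.8% of coding promoters and 40.9% of regions away from starts. +dox replicate 3 was one of the callers in 202 of the 224. It was a caller in 1256 of 1542 coding promoters and 4058 of 4220 regions away from starts called in 2. Long non-coding RNA members were called in all 6 at 30.8%, TEC at 40.4%, microRNA at 20.7% and pseudogene members at 12.3%.

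The share of members called differed between no dox and +dox by less than the spread of the libraries. It was 47.1%, 61.6% and 63.1% in no dox replicates 1 to 3 and 56.1%, 62.2% and 96.2% in +dox replicates 1 to 3, a mean of 57.3 ± 8.86% against 71.5 ± 21.6% (SD, n = 3 each). The groups overlapped, and the difference of 14.2 percentage points did not pass an exact two-sided permutation test (p = 0.5, adjusted p = 0.8 over 4 dox contrasts, smallest possible p = 0.1). Within each replicate number the share was higher with dox, and with the numbers as pairs the exact sign-flip p was 0.25, the smallest that 3 pairs allow. Without +dox replicate 3 the difference was 7.20 points. The gap between members and coding promoters changed by -11.7 points (exact permutation p = 0.4), that to regions away from starts by 2.35 points (p = 0.6), each in the same direction in 3 of 3 pairs (exact sign-flip p = 0.25), and the median height percentile by 3.99 points (p = 1). By the 2 of 3 rule of the study, 333 members (50.9%) were bound without dox, where 50.2% of all kept regions were, and 461 (70.5%) with dox, where 73.5% were. Of the members 162 (24.8%) met this rule in +dox and had fewer than 2 no dox calls, against 28.4% of all regions. In reverse, 34 (5.20%) met it in no dox and had fewer than 2 +dox calls, against 5.11%. These shares lay near the background, and a member counted here may have had 1 call in the other group. These counts lean on +dox replicate 3: both other +dox libraries called 299 members (45.7%, against 48.0% of all regions). Of these, 59 (9.02% of the members, against 10.9% of all regions) were called by fewer than 2 no dox libraries.

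The strict pattern, a call in all 3 +dox libraries and in 0 of the no dox libraries, was found at 20 members (3.06%), where 3.38% of all kept regions had it. The reverse pattern was found at 0 members, against 0.0266% of all regions. Both shares lay near the background. The highest of the 20 was Gm47602, a TEC gene in 2010111I01Rik on the opposite strand, with 13.9, 12.8 and 4.48 CPM in the +dox replicates. Next came the snRNA Gm23100 with 13.9, 7.79 and 3.74 CPM, the antisense Gm36696 in Mctp2 with 6.28, 9.45 and 8.22 CPM, Nr6a1os, antisense in the nuclear receptor gene Nr6a1, with 11.9, 7.79 and 2.74 CPM, and the pseudogene Gm20391 with 11.9, 5.56 and 4.73 CPM. Of the 20, 11 held CAGCTG, 13 held GGGCGG and 7 were island-like, against 262, 179 and 144 of the 654 members. A missing call says that no peak passed the threshold of that list, not that signal was absent.

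At members called in all 6 libraries the median maximum signal was higher with dox by as much as over all regions. limma was run on log2 of the maximum signal over the 4838 regions called in all 6 libraries, 184 of them members. The median log2 change was 0.91 for members and 0.91 for all regions, and members differed little by pair, at 1.14, 0.66 and 0.94 for replicates 1, 2 and 3 against 1.17, 0.69 and 0.93 for all. Without a term for the replicate number no member passed an adjusted p of 0.05 in either direction, where 0% of all regions rose and 0% fell. At an unadjusted p under 0.05, 41 members were higher and 0 lower, of 1173 regions, all higher. With the replicate number as a term, which pairs the libraries, 96 members rose (52.2%) and 1 fell, where 53.5% of all regions rose and 0.062% fell. Without +dox replicate 3 and without that term 68 of 181 members rose, against 40.1% of 4871 regions, and without both replicates numbered 3 71 of 210 rose, against 35.9% of 6314 regions. When the libraries were given 1 common distribution (quantile normalization) the median moved to 0.01 for members and 0.02 for all regions. By limma 0 members then passed with or without the replicate term. At an unadjusted p under 0.05 were 17 of 184 members with the term (7 higher, 10 lower) and 5 without it (1 higher, 4 lower). Over all 4838 regions these were 552 (247 higher, 305 lower) and 125 (57 higher, 68 lower). The median of all regions, 0.91, is to be set beside each change below. Each limma p-value printed for a gene tests its change from 0, not its difference from that median.

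**Figure D4:**
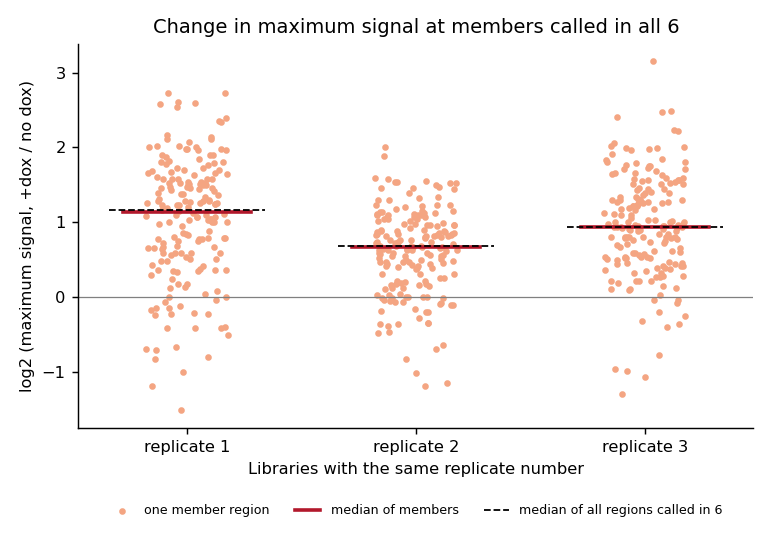
Each point is 1 of the 184 members called in all 6 libraries, placed at the log2 ratio of its maximum signal in the +dox over the no dox library of the same replicate number, with random spread along the horizontal axis. Red lines are the medians of members (1.14, 0.66 and 0.94) and dashed black lines those of all 4838 regions (1.17, 0.69 and 0.93). The 2 lines nearly coincide at each replicate number.

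The member with the highest change statistic was Gm15996, antisense in Apopt1. Its maximum was 10.2, 18.5 and 6.00 CPM without dox and 62.1, 53.9 and 24.2 CPM with dox, so each +dox library was above all 3 no dox libraries. The log2 change was 2.05 ± 0.59 (SE, limma adjusted p = 0.203, and 6.18e-05 with the replicate number as a term). That was 1.14 above the median of all regions, a difference that was not tested. The 4 next were the lincRNA Gm26863 with a log2 change of 1.62, Gm6658, a TEC gene in Chd9, with 1.78, Mir22hg, the host transcript of miR-22, with 1.65, and Gm37885, antisense in the calpain gene Capn2, with 1.58. All of these changes had a limma adjusted p of 0.203, and of 0.000935 or lower with the term. Relative to the median of all regions they were 0.71, 0.87, 0.74 and 0.67. Mir22hg had 18.6, 23.9 and 8.57 CPM without dox and 74.6, 46.7 and 34.1 CPM with dox, from a region of 5800 bp whose maximum lay 2613 bp upstream of the start.

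Gm16240 went the other way. This antisense gene inside Dip2a had 73.1, 62.3 and 19.3 CPM without dox and 41.1, 27.2 and 9.71 CPM with dox, lower with dox at each replicate number, while the groups overlapped. Its log2 change was -1.0 ± 0.64 (limma, adjusted p = 0.261, and 0.0254 with the replicate term), and it was the 1 member that fell. Relative to the median of all regions the change was -1.91. With the replicates of any one number left out, 0 members fell. Its window, printed above, repeats a short unit with CAGCTG in 4 copies, and how reads were placed in such repeats was not tested. The other members with low statistics, Mir1668, A630001O12Rik, Gm44652 and Gm11734, had log2 changes of -0.36, -0.23, -0.25 and -0.14, or -1.27, -1.14, -1.16 and -1.05 relative to the median of all regions, and none passed in either fit (limma, adjusted p from 0.407 to 0.845).

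**Figure D5:**
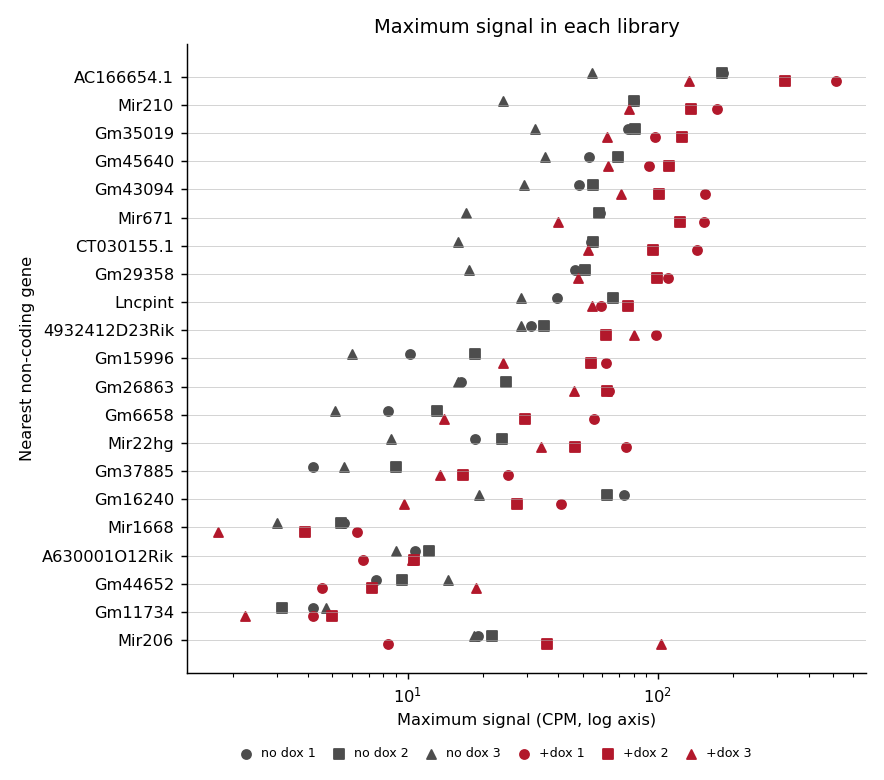
The horizontal log axis gives the maximum signal (CPM) in each library for the 10 highest members, the 5 with the highest and the 5 with the lowest change statistic, and Mir206. Grey symbols are no dox and red symbols +dox libraries, with circles, squares and triangles for replicates 1, 2 and 3. At Gm15996 all 3 red symbols lie to the right of all 3 grey symbols, and at Gm16240 each red symbol lies to the left of the grey symbol of its number.

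Of the host transcripts of snoRNAs on a list of 21, 18 had an entry in the annotation, 6 of them at a member and 6 at a region that also lay at a coding start. Snhg5 was the one called in all 6 libraries, with 3.72, 4.06 and 1.71 CPM against 14.6, 6.12 and 1.99 CPM. Its log2 change was 0.93 (limma, adjusted p = 0.297, and 0.0382 with the replicate term), 0.02 above the median of all regions. Dancr, in a region nearest to Gm43416, and Snhg15 were called in the 3 +dox libraries alone, at 5.58, 5.56 and 2.24 CPM and at 14.6, 3.89 and 2.99 CPM. Snhg8 was called in 4 libraries, Snhg6 in 3 and Snhg20, in a region nearest to Gm26083, in 2.

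Host transcripts of microRNAs were met at 3 of 8 annotated genes. Beside Mir22hg these were Mir155hg, called in 2 libraries at 2.71 and 1.25 CPM, and Dleu2, from which miR-15a and miR-16 are cut. Dleu2 had members at 2 of its starts, both called in all 6 libraries. The first had 9.77, 12.2 and 3.00 CPM against 49.9, 20.0 and 9.46 CPM, a log2 change of 1.57 (0.66 above the median of all regions). The second had 2.33, 5.87 and 3.86 CPM against 9.41, 11.7 and 5.73 CPM, a log2 change of 1.19 (0.28 above that median). Both rose only in the fit with the replicate term (limma, adjusted p = 0.000961 and 0.00912, and 0.203 and 0.206 without it).

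Of 20 annotated long non-coding RNAs on the list of well known ones, 7 had a member. Genes were matched by symbol, and Lincpint of the list is annotated as Lncpint, the member named above, so it is not in this count. Neat1, which builds paraspeckles, shared a region of 15000 bp with Frmd8os, the widest of all members, with 11.4, 13.1 and 15.9 CPM without dox and 12.6, 24.5 and 54.9 CPM with dox. Its log2 change was 0.94 (limma, adjusted p = 0.256, and 0.035 with the replicate term), 0.03 above the median of all regions. Malat1, a transcript of nuclear speckles, was called in 5 libraries, at 4.52 and 3.43 CPM without dox and 9.76, 8.34 and 3.24 CPM with dox. H19, an imprinted transcript abundant in developing muscle, was called in the 3 +dox libraries alone, at 6.97, 6.12 and 1.74 CPM. Jpx and Ftx, both of the X inactivation centre, were called in 4 and 2 libraries, Peg13, imprinted and inside Trappc9, in 5, and Trp53cor1, a p53 target 12003 bp from the coding start of Cdkn1a, in 4. None of the 10 small structural RNAs listed, such as Rn7sk, Rpph1 and Terc, was at a member. Of them Rmrp lay at a region that was also at a coding start.

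Hairpins of microRNAs were within 1 kb of 64 members, with 69 microRNA genes among them, and 13 of these genes lay at members called in all 6 libraries. RefSeq holds mature sequences for 49 of the 69. The mature sequences of the 3 that the text turns on are given 5′ to 3′ with the seed, bases 2 to 8, in capitals.
miR-206-3p: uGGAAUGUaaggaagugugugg
miR-210-3p: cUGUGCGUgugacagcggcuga
miR-671-5p: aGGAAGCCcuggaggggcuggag
Of 87 seeds, 2 were held by more than 1 gene, and each pair of genes lay at 1 member region. miR-132-3p and miR-212-3p share the seed AACAGUC.
miR-132-3p: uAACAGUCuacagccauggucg
miR-212-3p: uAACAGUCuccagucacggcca
They lay at a member called in 5 libraries, with 2.71 and 1.71 CPM without dox and 4.88, 5.00 and 1.74 CPM with dox. miR-29a-3p and miR-29b-3p share AGCACCA, and their member was called in 3 libraries.
miR-29a-3p: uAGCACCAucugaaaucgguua
miR-29b-3p: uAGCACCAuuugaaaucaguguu

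Mir206 was the one muscle microRNA of 11 annotated on the list (among them Mir1a-1, Mir133b and Mir499) with a member. Its region, chr1:20677701-20678450, was called in all 6 libraries with the maximum 884 bp upstream of the hairpin, at 19.1, 21.7 and 18.4 CPM without dox and 8.37, 36.1 and 103 CPM with dox. The no dox values lay close together, while the +dox values spread on both sides of them. The log2 change was 0.68 ± 0.69 (limma, adjusted p = 0.444, and 0.129 with the replicate term), which is -0.23 relative to the median of all regions. Mir125b-1, of a family widely expressed in tissues, was also called in all 6 libraries, at 6.52, 9.48 and 3.43 CPM against 5.58, 9.45 and 4.73 CPM, as were Mir1941 inside Krt80, at 31.4, 48.3 and 37.3 CPM against 48.8, 57.6 and 55.8 CPM, and Mir1191b inside Nfic, at 12.1, 17.6 and 5.57 CPM against 53.3, 27.8 and 11.0 CPM. Mir125b-1, Mir1941 and Mir1191b, like the genes with shared seeds and the RefSeq examples above, were chosen for mention after the data were seen. Compared with long non-coding RNA members, 36.2% of microRNA members had CAGCTG (against 40.5%) and 69.0% lay inside a coding gene (against 33.6%), a description of these regions without a test.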

How the data were processed

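CUT&RUN libraries were processed by the authors with nf-core/cutandrun on mm10, with blacklisted regions removed, coverage scaled to CPM and peaks called in each library with SEACR in relaxed mode. The deposited lists give each peak's total signal (coverage summed over bases) and maximum signal, in CPM. The lists hold no read totals, so depth was read from the step of the maximum signals. Ends lie on a 50 bp grid and no spike-in scale is stated.

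Regions, classes and motifs were computed in Python 3.11.15 with NumPy 2.4.6, SciPy 1.17.1, pandas 2.3.3 and pysam 0.24.0, and changes with limma 3.58.1 in R 4.3.3, without pseudocount. Scripts were tested on simulated data. Group means were compared over the 20 assignments of 3 and 3 libraries and classes over the 64 sign patterns of 6. A threshold of 0.05 was applied to adjusted p. The same replicate number marked libraries that deviated together over 4838 regions (correlations 0.49, 0.27 and 0.63, and between -0.56 and 0.26 for other pairs), so that the numbers were taken to pair the libraries. The labels name biological replicates and do not say what a number marks. +dox replicate 2 correlated at 0.27 with no dox replicate 2 and at 0.26 with no dox replicate 1. The regions are also those that the fit with the replicate term tests.

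Members named are the 10 highest called in all 6 libraries, the 5 highest of each strict call pattern, the 5 with the highest and the lowest limma statistic, those at genes of 5 fixed lists (snoRNA hosts, microRNA hosts, well known long non-coding RNAs, small structural RNAs, muscle microRNAs), the highest of each gene type with 3 or more members, and those nearest the distance limits. The members and lists were chosen with earlier results of these data known. Alternatives changed the distance limit, the number of libraries, list length, the rank, the motif window and the normalization, and left out libraries.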

Additional observations from a re-analysis of the deposited data

Results flagged for a closer look

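The difference in CAGCTG share between members and coding promoters was 6.37 percentage points in no dox replicate 3, far from the other 5 libraries, which lay between 17.2 and 18.2 points. The gap to the nearest library was 0.92 of the whole range, above the 95% critical value of Dixon's test for 6 values. Of 8 class differences this was the one set apart in this way, and chance alone would set apart about 1 group in 20. In that library 32.4% of called members and 26.1% of called coding promoters held CAGCTG.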

How the results depend on the processing

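Of 267 alternative values, 195 kept their direction and their side of the threshold. Asking for 3 or more libraries left 430 members, and dropping both replicates numbered 3, chosen after seeing the data, left 413. With all lists cut to the length of the shortest, 402 members were kept, 4 were called in every +dox library alone and 3 in every no dox library alone, and 3 dox contrasts turned: -0.41 points for the share called, -0.66 for its gap to regions away from starts and -5.76 for the height percentile. The counts of 4 and 3 likewise have no share over all regions beside them. Ranking by total signal turned the height difference to regions away from starts to 1.83 points.

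Leaving out 1 library at a time gave 465 to 634 members. Of these, 24 to 49 were called in every +dox library alone and 0 to 5 in every no dox library alone. The most were found without +dox replicate 1 and without +dox replicate 3, respectively. These counts have no share over all regions beside them and are not read as a trait of the members. The CAGCTG differences ranged from 15.3 to 18.6 and from -9.85 to -8.60 points, TGANTCA from 11.0 to 12.6 and from -5.34 to -4.67, and GC from -7.36 to -6.77 and from 1.94 to 2.59, all with p = 0.0625 (exact sign-flip over 5 libraries), the smallest possible. The share called ranged from 7.20 to 20.9 points, its gap to coding promoters from -18.5 to -3.72 and its gap to regions away from starts from -1.23 to 6.41, which turned without +dox replicate 1 (-1.23) and without no dox replicate 3 (-0.38). The height percentile ranged from -6.12 to 10.5 and turned without +dox replicate 3 (-6.12). By limma 0 to 68 members rose and 0 fell, the 68 (37.6%, against 40.1% of all regions) without +dox replicate 3.

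Without both replicates numbered 3, the height percentile difference was -2.66. In that setting 34 members were called in every +dox library alone and 14 in every no dox library alone. No share over all regions stands beside these counts, so they are not read as a trait of the members. The class differences were 19.3, -10.5, 12.6, -4.97, -6.47 and 2.86 points (CAGCTG first, then TGANTCA and GC, exact sign-flip p = 0.125, the smallest possible). In the same setting 71 members rose (33.8%, against 35.9% of all regions). With the replicate block 96 members rose (52.2%, against 53.5% of all regions) and 1 fell. The 4 dox contrasts stayed short of the threshold (exact sign-flip p from 0.25 to 1). The class differences, taken within each library, were not fitted with the block. With the block and without each number in turn, also chosen after seeing the data, 60, 43 and 79 members rose and 0 fell. Those that rose were 25.1%, 21.9% and 37.6% of the members tested, against 23.7%, 21.7% and 39.6% of all regions. With the block on quantile normalized values 0 members passed either way (limma, 17 of 184 members and 552 of 4838 regions at an unadjusted p under 0.05).

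Weak members rest on few alignments. In +dox replicate 3, the deepest library, the maximum signals rose in steps of 0.125 CPM. A maximum of 1.74 CPM there stands for few alignments, and the lowest called member had 0.498 CPM. Relaxed calls have no shared floor. Whether depth limits the weak members was not tested.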
